A study of Mus musculus with 3 samples.

Results

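Wild-type H3K4me1 peaks that lay over 2 or more separate peaks of the LONP1 knockout list are described here. They were chosen by the measured peak positions: a wild-type peak on chromosomes 1 to 19, shorter than 4000 bp, that overlapped at least 2 knockout peaks by at least 1 bp. The rule found 4817 of 70854 wild-type peaks, and these are called split peaks, their knockout partners are called pieces, and the stretch between neighbouring pieces is called a gap. The converse, knockout peaks of the same chromosomes and length that overlapped at least 2 wild-type peaks, numbered 2338 of 61906. The series holds 1 H3K4me1 library from adipocytes of LONP1 adipocyte-specific knockout (AKO) mice, 1 from adipocytes of wild-type (WT) control mice, and 1 input library without antibody, all labelled male C57BL/6J. LONP1 is the protease that degrades damaged and surplus proteins in the mitochondrial matrix. The submitters describe the aim as a map of this enhancer mark over LONP1-dependent genes of beige fat. The Cre driver of the knockout, the age of the mice, their number per library and the fat depot are not given in the sources used here. The input's title ties it to the AKO library while its genotype label reads wild type, and per the file headers the same input served both peak calls. With 1 library per genotype there is no replicate error, so no test between genotypes was possible; intervals are 95% Wilson intervals and cover counting error only.

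H3K4me1 is a single methyl group on lysine 4 of histone H3, written mainly by the MLL3 and MLL4 (KMT2C and KMT2D) complexes at enhancers. It usually flanks the open centre of an enhancer or promoter, where transcription factors and polymerase displace nucleosomes and where, at active promoters, the trimethyl form takes its place. In adipocytes it marks the enhancers bound by PPARγ and C/EBP factors, and a narrow-peak caller can return such a stretch as 1 peak or as several, depending on where the signal falls below its threshold.

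Of 339 annotated start sites in split peaks, 59 fell in the gap itself, where the WT list had a peak and the AKO list had none. Gaps made up 18.4% of the summed length of split peaks. Among the start sites in gaps, those of the 4 named genes whose split peaks had the highest WT summits were chosen. Their promoters are shown from the RefSeq table of GRCm38.p6 (mm10), an uncharacterised RIKEN transcript on chromosome 17 being left out. Some split peaks with a start site in a piece were taller, such as that of Kcnn3 with 71 fragments. The fourth, Fgfr3, tied at 51 fragments with Slitrk5, which is not shown. Each runs 5′ to 3′ on the gene's own strand from 250 bases before to 50 bases after the start site, with CG pairs, the sites of DNA methylation, in capitals.
Insyn2a: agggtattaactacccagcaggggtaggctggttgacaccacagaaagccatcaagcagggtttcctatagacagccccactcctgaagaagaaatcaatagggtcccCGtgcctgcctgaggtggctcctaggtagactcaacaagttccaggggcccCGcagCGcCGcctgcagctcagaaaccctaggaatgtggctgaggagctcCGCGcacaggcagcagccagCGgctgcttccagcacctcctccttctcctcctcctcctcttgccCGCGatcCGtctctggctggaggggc
Lhx6: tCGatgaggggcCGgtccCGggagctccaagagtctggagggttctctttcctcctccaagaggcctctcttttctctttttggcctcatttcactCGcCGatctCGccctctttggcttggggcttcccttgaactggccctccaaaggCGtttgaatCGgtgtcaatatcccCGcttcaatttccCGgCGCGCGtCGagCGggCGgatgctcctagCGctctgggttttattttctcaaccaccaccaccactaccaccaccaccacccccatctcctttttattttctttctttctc
Rara: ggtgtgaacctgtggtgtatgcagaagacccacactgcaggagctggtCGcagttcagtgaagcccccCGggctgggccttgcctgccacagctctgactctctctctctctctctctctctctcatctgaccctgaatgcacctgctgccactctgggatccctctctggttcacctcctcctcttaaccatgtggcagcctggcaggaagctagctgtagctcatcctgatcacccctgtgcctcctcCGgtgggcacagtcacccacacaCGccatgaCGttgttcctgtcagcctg
Fgfr3: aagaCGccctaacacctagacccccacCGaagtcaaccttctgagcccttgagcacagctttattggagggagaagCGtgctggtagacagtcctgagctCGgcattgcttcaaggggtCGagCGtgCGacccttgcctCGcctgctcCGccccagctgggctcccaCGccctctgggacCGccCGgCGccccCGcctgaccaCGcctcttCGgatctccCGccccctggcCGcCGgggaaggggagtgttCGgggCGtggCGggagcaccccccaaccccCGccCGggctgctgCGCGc
The Insyn2a promoter (chr7:134938381-134938680, minus strand) had 10 CG pairs. It lay in a peak with 26 fragments at the taller AKO piece, against 62 at the WT summit, and a gap of 164 bp. Lhx6, a LIM homeobox transcription factor (chr2:36104484-36104783, minus strand), had 17 CG pairs and 3 pieces, the tallest with 33 fragments in AKO, against 59 in WT, and its longest gap was 704 bp. Rara encodes the retinoic acid receptor alpha (chr11:98939461-98939760, plus strand). Its promoter had 5 CG pairs, and the taller AKO piece had 30 fragments, against 54 in WT, across a gap of 282 bp. Fgfr3, a fibroblast growth factor receptor (chr5:33721474-33721773, plus strand), had the most CG pairs of these 4, 26, with 31 fragments in AKO, against 51 in WT, and a gap of 385 bp. Lhx6 and Fgfr3 each also had another start site inside an AKO piece of the same peak. The 4 promoters thus ranged widely in CG pairs. In each the tallest AKO piece stood below the WT summit, which picking tall WT summits favours and which 80.7% of all split peaks showed.

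Split peaks also held 28 miRNA genes in 24 peaks. Their hairpins gave 50 mature sequences with 50 distinct seeds, so no 2 shared a seed. The mature forms of the better-known families are shown from RefSeq, 5′ to 3′, with the seed (bases 2 to 8) in capitals.
miR-23a-3p: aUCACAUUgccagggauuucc
miR-27a-3p: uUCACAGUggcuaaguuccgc
miR-24-3p: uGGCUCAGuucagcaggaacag
miR-130a-3p: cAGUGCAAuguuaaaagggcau
miR-139-5p: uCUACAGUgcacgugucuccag
miR-125a-5p: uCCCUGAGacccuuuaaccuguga
let-7e-5p: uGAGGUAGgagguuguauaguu
The first 3 come from the miR-23a/27a/24-2 cluster, of which miR-27a is known to hold back adipocyte differentiation. The cluster lay in a piece of a split peak at chr8:84207872-84209607, with 21 and 12 fragments in the AKO pieces, against 32 at the WT summit. Mir130a, whose product is known to repress Pparg, also lay in a piece, with 23 and 18 fragments in AKO, against 33 in WT. Mir139 lay in the gap of its peak, with 29 and 16 fragments in AKO, against 36 in WT. In the peak of the let-7e and miR-125a genes (chr17:17829753-17832285) the pieces had 18 and 15 fragments in AKO, against 27 in WT; Mir125a lay in a piece and Mirlet7e outside the outermost pieces. Of the 28 miRNA genes, 19 lay in a piece, 2 in a gap, 5 outside the pieces and 2 across the edge of a piece. Split peaks held 3.08 miRNA genes per Mb, WT peaks with 1 AKO partner 2.08 and WT peaks with none 2.14, on the chromosomes of the promoter table. These rates rest on only 28, 66 and 28 genes, and the genes of a cluster in 1 peak were counted singly.

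Duplicate-filtered tags numbered 14733950 in AKO and 15015805 in WT, with 9537585 in the input. The lists held 62361 AKO and 72040 WT peaks. The authors' pileup at a summit, divided by the scale factor in the header of its list, gave a whole number within 0.02 at every peak, and this number of fragments is the height used throughout. The lowest summit had 10 fragments in both lists. Adipocyte genes carried peaks in both lists: Adipoq had 2 AKO and 2 WT peaks in the gene with 10 kb on either side, Pparg 6 and 6, Fabp4 2 and 3, and Plin1 2 and 5. The leukocyte genes Ptprc, Cd3e and Adgre1 had 0 peaks in both, while Cd68 had 3 AKO and 4 WT peaks and the endothelial gene Pecam1 9 AKO and 12 WT peaks. In bulk chromatin, fewer cells carrying the mark and less mark per cell cannot be told apart. Lonp1 itself held 1 split peak with a WT summit of 28 fragments, and had 7 AKO and 8 WT peaks in its window; no expression was measured here, so the loss of LONP1 was not checked.

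Split peaks were 6.80% of the WT peaks (6.62 to 6.99%), and split AKO peaks were 3.78% of the AKO peaks (3.63 to 3.93%). Of peaks with any partner, 11.3% of WT peaks were split, against 4.96% of AKO peaks. A further 37827 WT peaks had 1 AKO partner and 28210 had none. The order turned with a stricter list: among peaks with −log10 q of at least 5, 3.09% of WT peaks and 3.24% of AKO peaks were split, a difference of −0.153 percentage points (−0.459 to 0.146), against 3.02 points (2.78 to 3.26) over the full lists. Since the positions of both lists chose the split peaks, these shares are descriptions of the 2 lists and not evidence of a change.

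The share grew with length, in classes that include their lower bound and not their upper one. Of WT peaks of 3000 to 4000 bp 61.7% were split, against 24.1% of AKO peaks of that length, and at 2000 to 3000 bp the shares were 46.5% of WT and 21.0% of AKO peaks. At 1500 to 2000 bp 28.3% of WT and 16.7% of AKO peaks were split, and at 1000 to 1500 bp 12.6% of WT and 11.1% of AKO peaks. Below 1000 bp the order was the other way: 2.43% of WT and 3.28% of AKO peaks of 500 to 1000 bp, and 0.154% of WT and 0.306% of AKO peaks below 500 bp. At 1000 to 2000 bp, the split share of WT peaks was 13.2% at 10 to 19 summit fragments, 19.6% at 25 to 29 and 11.6% at 40 or more. That of AKO peaks was 17.5%, 10.9% and 1.75% in the same classes. The class of 40 or more held 118 split of 1021 WT peaks (9.74 to 13.7%) and 2 split of 114 AKO peaks (0.482 to 6.17%). Far fewer AKO peaks were that tall, so equal numbers of fragments do not make the classes alike between the lists. Around the length limit, 88 of 128 WT peaks in the 200 bp below it and 74 of 101 in the 200 bp from it upwards met the overlap rule.

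**Figure D1:**
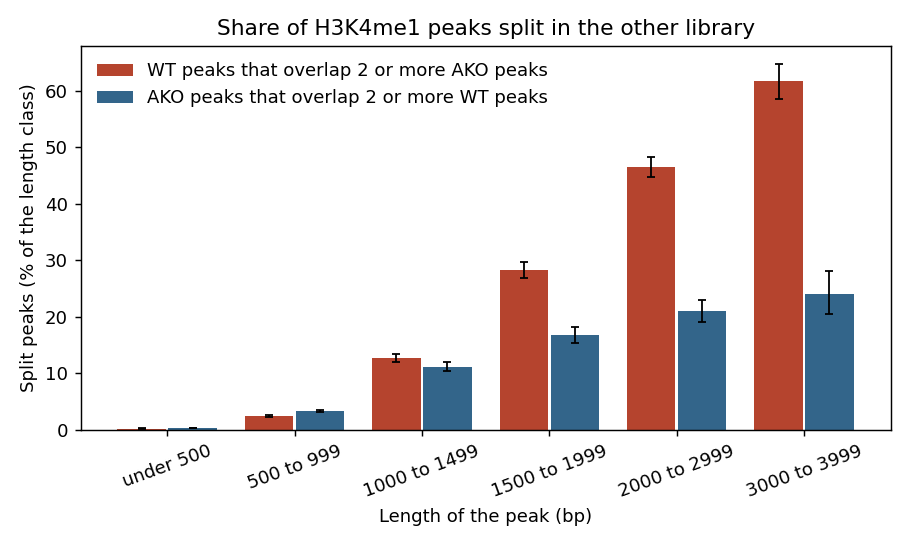
Percentage of peaks split in the other library (y axis) by peak length in bp (x axis), for WT peaks split in AKO (red) and AKO peaks split in WT (blue), with 95% Wilson intervals. WT peaks of 3000 to 4000 bp reach 61.7% and AKO peaks of that length 24.1%, and the order turns below 1000 bp.

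A typical split peak was a long WT peak with a short break. Measured from the peak's left end on the chromosome, the centre of the longest gap had quartiles of 36.2% and 63.9% of peak length. Its median was 49.9%. Left and right are arbitrary, so a median near the midpoint is expected wherever breaks lie and does not show that they are central. Split WT peaks had a median length of 1806 bp, and split AKO peaks 1280 bp. Pieces numbered 2 in 4356 split peaks, 3 in 426, 4 in 33 and 5 in 2. The longest gap had a median of 270 bp, with 5 to 95% of peaks between 160 and 745 bp, and the shortest was 151 bp, just above the 150 bp tag size. It was no longer than the fragment length estimated by the caller, 270 bp in AKO, in 2420 split peaks (50.2%), and over 500 bp in 686 (14.2%) and over 1000 bp in 92 (1.91%). In the converse the median gap was 232.5 bp, and 64.7% were no longer than the fragment length. Pieces covered a median of 69.1% of a split WT peak, against 74.8% in the converse. Summed over all split WT peaks, 9.29 Mb in length, 68.4% lay in pieces, 18.4% in gaps and 13.1% outside the outermost pieces. The WT summit fell in a piece in 4001 peaks (83.1%), in a gap in 654 (13.6%) and outside the pieces in 162 (3.36%). These shares stand beside the 68.4%, 18.4% and 13.1% of the summed length. The share in the gap differed by length: it was 72.3% of the 47 split peaks below 500 bp and 4.96% of the 605 of 3000 to 4000 bp. Pieces covered a median of 47.0% of the former and 75.9% of the latter. A gap of at least 151 bp takes a large part of a peak below 500 bp, so part of this difference follows from length alone. Pieces all lay within the WT peak in 1558 (32.3%), while in 795 (16.5%) a piece also reached a neighbouring WT peak, against 6.33% and 34.3% in the converse.

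**Figure D2:**
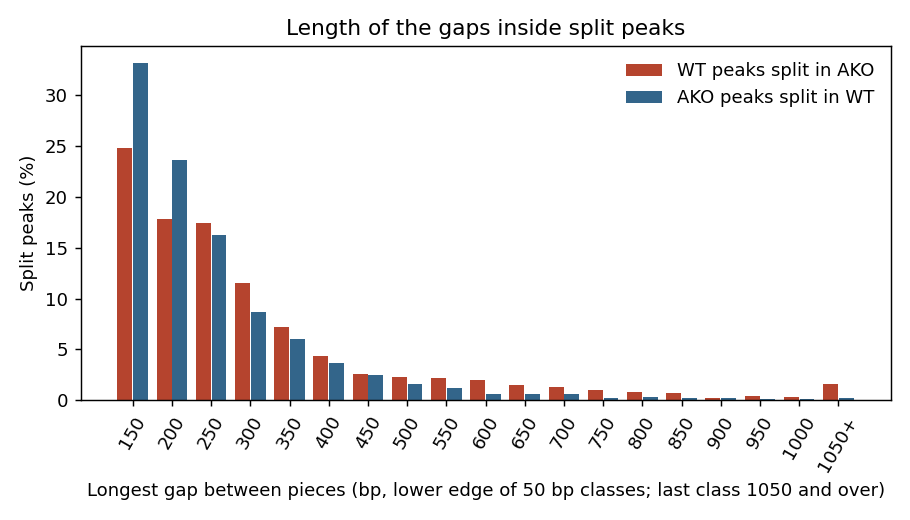
Percentage of split peaks (y axis) by the length of their longest gap in classes of 50 bp (x axis, lower edge of each class, the last holding all longer gaps), for WT peaks split in AKO (red) and AKO peaks split in WT (blue). Both start at 151 bp, with medians of 270 bp for WT peaks and 232.5 bp for AKO peaks.

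Most pieces stood lower than the WT peak they overlapped. Their median height was 23 fragments for the tallest and 17 for the shortest AKO piece, against 29 at the WT summit. The tallest piece was lower than the WT summit in 3887 split peaks (80.7%), equal in 212 and higher in 718 (14.9%). Among all WT peaks with a partner the tallest AKO partner was lower in 68.7%. The median ratio of the tallest piece to the WT summit was 0.765 at 2000 to 3000 bp, close to the 0.758 of WT peaks of that length with a single AKO partner, and it was 0.826 against 0.784 at 1000 to 1500 bp. In the converse, the tallest WT piece was lower than the AKO summit in 438 peaks (18.7%), beside 19.2% of all AKO peaks with a partner.

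**Figure D3:**
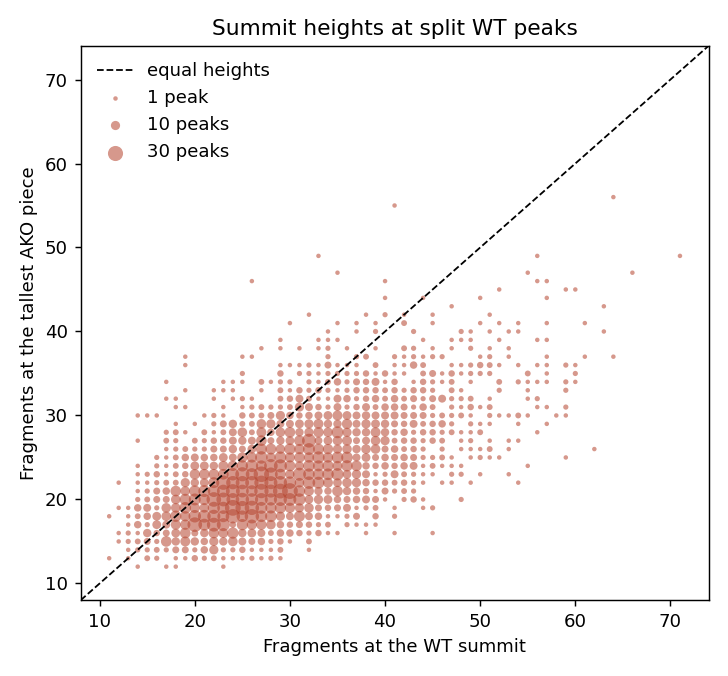
Fragments at the tallest AKO piece (y axis) against fragments at the WT summit (x axis) for the 4817 split WT peaks, with the area of a dot growing with the number of peaks at that pair of values. The dashed line marks equal heights, and 80.7% of the peaks lie below it.

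The most broken peaks lay at Rac1 and near Slf2, with 5 pieces each. At Rac1, a small GTPase that drives actin remodelling (chr5:143509085-143512624), the AKO pieces had 22, 22, 30, 14 and 17 fragments, against 43 at the WT summit. At 18.4 kb from Slf2 the pieces had 15, 18, 19, 14 and 13 fragments in AKO, against 33 in WT. Among peaks with 4 pieces, the tallest WT summit belonged to Ppargc1a, the coactivator PGC-1α that drives mitochondrial biogenesis and thermogenic transcription. This peak (chr5:52112746-52115639) lay just inside the upstream end of the annotated gene (chr5:51454249-52115853, minus strand). The start site in the promoter table was a different one, 545.0 kb downstream of the peak. The peak had 16, 19, 14 and 37 fragments in the AKO pieces, against 53 in WT, with a longest gap of 247 bp. Phf2, a histone H3 lysine 9 demethylase, had 14, 34, 22 and 28 in AKO, against 44 in WT, and Aamp 16, 21, 17 and 23, against 40.

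The longest gaps were 2289 bp at Fam83a, 1848 bp at Rab3il1, 1830 bp at Gse1, 1713 bp at a peak 27.6 kb from Col5a1 and 1653 bp at Chst12. At Fam83a the 2 AKO pieces had 14 and 22 fragments, against 24 in WT, and the WT summit lay in the gap. It lay in the gap at Gse1 (15 and 17 in AKO, 23 in WT), near Col5a1 (23 and 24, against 26) and at Chst12 (20 and 21, against 31) too, and in a piece at Rab3il1 (14 and 20, against 29). The WT summits of these 5 peaks, 23 to 31 fragments, lay around the median of 29 over all split peaks.

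The 5 tallest split peaks had longest gaps between 162 and 328 bp. At Kcnn3, a calcium-activated potassium channel (chr3:89519756-89523496), the AKO pieces had 49 and 37 fragments, against 71 in WT, and covered 93.5% of the peak around a gap of 242 bp. Insm1, a zinc-finger factor of neuroendocrine cells, had 32 and 47 in AKO, against 66 in WT, with a gap of 162 bp. The peak 89.6 kb from Mis18a had 26 and 56 in AKO, against 64 in WT, with a gap of 328 bp. Scube3 had 27 and 37 in AKO, against 64 in WT, with a gap of 186 bp, and Ccdc97 43 and 31 in AKO, against 63 in WT, with a gap of 162 bp. The peak at Ccdc97 was also the split peak in the window of Tgfb1, the growth factor TGF-β1.

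**Figure D4:**
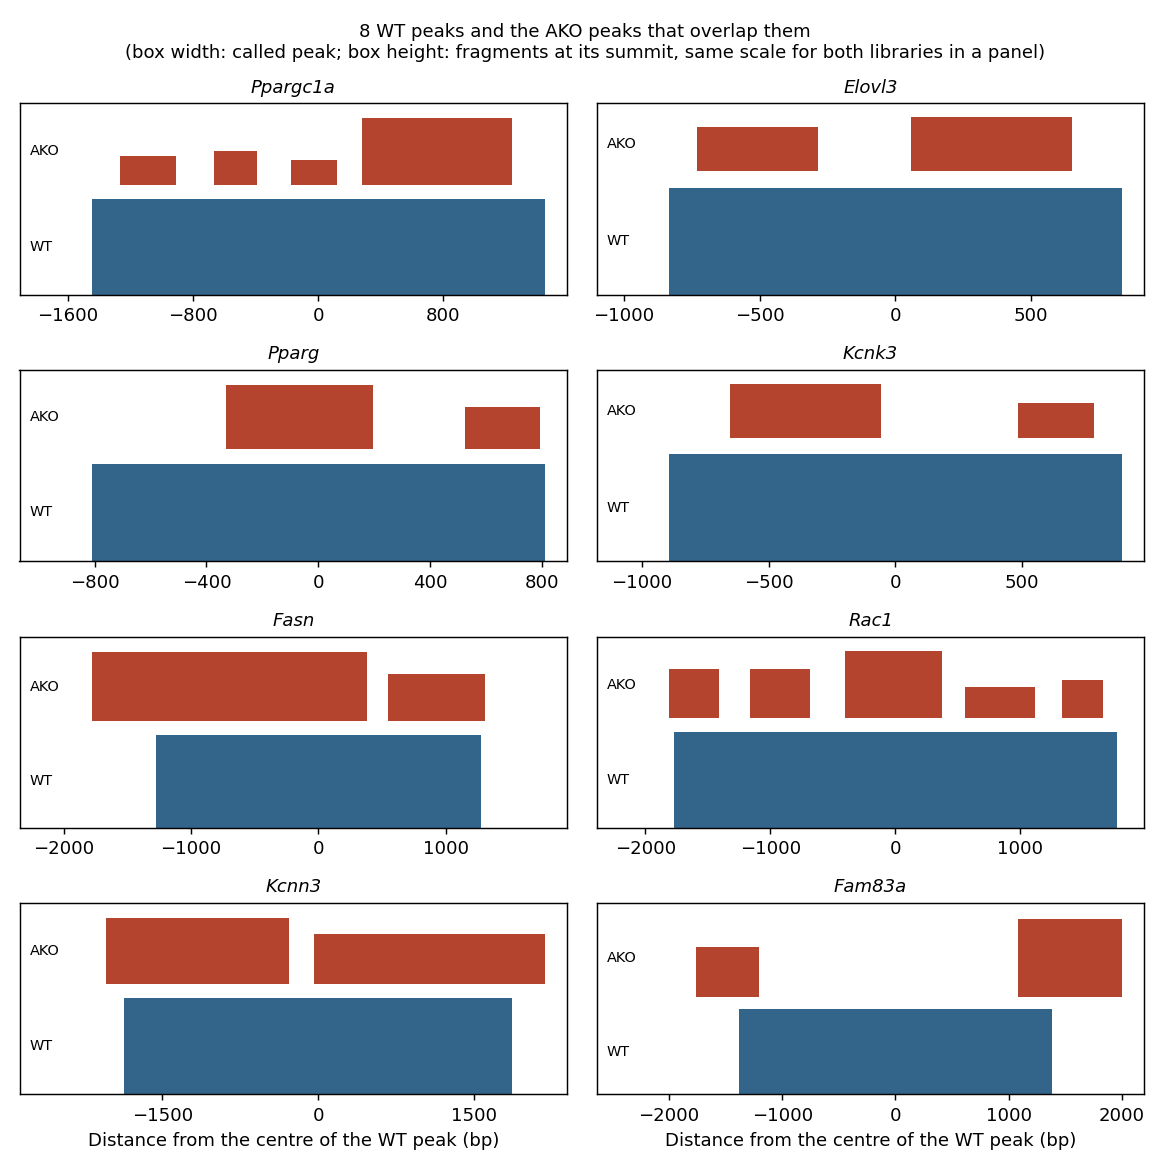
AKO pieces (upper boxes, red) and the split WT peak (lower box, blue) at Ppargc1a, Elovl3, Pparg, Kcnk3, Fasn, Rac1, Kcnn3 and Fam83a, by distance in bp from the centre of the WT peak (x axis), with box width as called and box height in fragments at the summit on 1 scale per panel. The gap spans 2289 bp at Fam83a and 158 bp at Fasn, and pieces at Fasn, Rac1, Kcnn3 and Fam83a reach beyond the WT peak.

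Gene lists were counted over gene bodies with 10 kb on each side, and a peak in such a window is not thereby a regulator of the gene. Over all protein-coding genes with a WT peak, 26.7% (3730 of 13945) held a split WT peak, and 14.0% (1862 of 13310) of those with an AKO peak held a split AKO peak. Thermogenic genes held one in 21 of 43 (48.8%), and their own converse share was 9 of 42 (21.4%). Counted by peaks the share was 30 of 330 (9.09%), beside 7.89% over all genes, a smaller difference than by gene. Elovl3, the fatty acid elongase induced in brown fat by cold, had 21 and 26 fragments in the AKO pieces, against 51 in WT, in a peak (chr19:46135649-46137316) that also overlapped Pitx3. Kcnk3, a potassium channel of brown adipocytes, had 20 and 13 in AKO, against 39 in WT, across a gap of 540 bp. Slc27a1, a fatty acid transporter, had 18 and 18 in AKO, against 39 in WT, with the WT summit in the gap. Esrra, an orphan nuclear receptor that partners with PGC-1α, had 2 split peaks, with 41 and 19 in AKO, against 42 in WT, and 30 and 15, against 46. Otop1, a proton channel, had 32 and 25 in AKO, against 48 in WT. Ckb, the creatine kinase of the futile creatine cycle, had 37 and 24 in AKO, against 44 in WT, and Sirt3, the mitochondrial deacetylase, 15 and 35, against 41, in a peak that overlapped Bet1l. Nr4a1, an orphan nuclear receptor, had 2 split peaks. Zbtb16 had 4, Zfp516 3 and Prdm16, the brown-fat determination factor, 2.

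Adipocyte genes held a split peak in 19 of 41 (46.3%), with 13 of 40 (32.5%) in the converse, and 34 of their 400 WT peaks (8.50%) were split. Pparg, the nuclear receptor that drives adipogenesis, had 1 of 6 WT peaks split: 32 and 21 fragments in the AKO pieces, against 48 in WT, at 9.39 kb from the gene (chr6:115498981-115500600). Its partner Rxra had 3 split peaks and Cebpa, a factor that drives adipogenesis with it, had 2, with 25 and 15 in AKO, against 36 in WT, and 17 and 20, against 33. Zfp423, a preadipocyte factor that holds back the thermogenic program, had 8 of 47 WT peaks split, with WT summits of 20 to 51 fragments. The taller AKO piece exceeded the WT summit in 2 of these 8 (28 in AKO, against 23 in WT, and 27, against 20), equalled it in 1 (25 in both) and was lower in 5 (31 against 45, 20 against 27, 21 against 29, 15 against 29 and 27 against 51). The lipogenic genes Fasn (31 and 21 in AKO, 41 in WT), Srebf1 (15 and 28 in AKO, 43 in WT, and 18 and 30 in AKO, 29 in WT), Dgat1 (29 and 17 in AKO, 40 in WT) and Scd1 each held 1 or more. Among lipolytic and lipid-droplet genes, Pnpla2, the lipase ATGL, had 2 split peaks, with 14 and 30 in AKO, against 48 in WT, and 36 and 18, against 50; both overlapped neighbouring genes, Cracr2b and Cd151. Plin4 had 38 and 22 in AKO, against 53 in WT, in a peak that also lay in the window of Plin5, and Aqp7, the glycerol channel, 29 and 21, against 36.

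Extracellular matrix genes held a split peak in 15 of 22 (68.2%), led by Col4a2 with 15 and Col4a1 with 7, and by peaks 54 of 397 (13.6%); their converse share was 12 of 24. Histone methylation genes held one in 10 of 18 (55.6%) and 18 of 116 peaks (15.5%), with 3 of 17 (17.6%) genes in the converse. Kmt2b and Kmt2d, which write H3K4 methylation, had 1 each and Tet3, a DNA demethylase on the list, 5. Housekeeping genes held one in 9 of 16 (56.3%), with 13 of 57 peaks (22.8%) and 2 of 15 (13.3%) genes in the converse, among them Actb, Gapdh and Eef2. Mitochondrial genes held one in 4 of 34 (11.8%), below the share over all genes, among them Acadvl, an enzyme of fatty acid oxidation, and Lonp1. Their converse share was 3 of 30 genes. Among markers of other cells, split peaks lay at 6 of 19 progenitor genes (31.6%) and 6 of 18 endothelial genes (33.3%). They lay at 4 of 13 lymphocyte (30.8%), 2 of 14 macrophage (14.3%) and 1 of 12 muscle genes (8.33%). Over all genes with a WT peak the share was 26.7%, and 14.0% in the converse. Converse counts were 4 of 18 progenitor, 0 of 17 endothelial, 0 of 12 lymphocyte, 1 of 12 macrophage and 0 of 14 muscle genes. By peaks the WT shares were 6.03, 8.79, 8.47, 5.77 and 4.08% in that order, beside 7.89% over all genes. By split peaks, Gse1 led all genes with 18 of 92 WT peaks, in a gene of 353 kb, followed by Col4a2 with 15, Zmiz1 and Trio with 11 each, Tns1, Itpk1, Vav2 and Ksr1 with 10 each, and Zfp469 and Ephb2 with 9 each. Several of these are long genes with many peaks. Across chromosomes the share of WT peaks split ran between 4.50% on chromosome 13 and 7.98% on chromosome 8.

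Start sites were placed for the 18 chromosomes of the promoter table; chromosome 18 was not analysed here. Of 4699 split peaks 301 (6.41%) held a start site, against 4.17% of WT peaks with 1 AKO partner and 2.43% of those with none. At matched length the order was the other way: at 1000 to 2000 bp 5.64% of split peaks held a start site, against 8.73% of peaks with 1 partner, a difference of −3.09 percentage points (−4.18 to −1.88). The class of 3000 to 4000 bp showed 9.92% in both. Start sites within split peaks were as dense in pieces, 35.2 per Mb, as in gaps, 35.3 per Mb, and denser outside the outermost pieces, 51.0 per Mb, from 219, 59 and 61 sites. Genes covered 76.3% of split peaks, 70.1% of peaks with 1 partner and 63.4% of those with none. By length, 72.0% of split peaks and 68.2% of peaks with 1 partner lay in genes below 1000 bp. From 1000 bp upwards split peaks were slightly lower. The shares were 71.1% and 71.3% at 1000 to 1500 bp, and 74.3% and 77.2% at 1500 to 2000 bp. They were 80.2% and 81.0% at 2000 to 3000 bp, and 84.2% and 86.8% at 3000 to 4000 bp. In every length class the 95% intervals overlapped. Split AKO peaks held a start site in 1.24%, against 2.96% of AKO peaks with 1 WT partner.

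**Figure D5:**
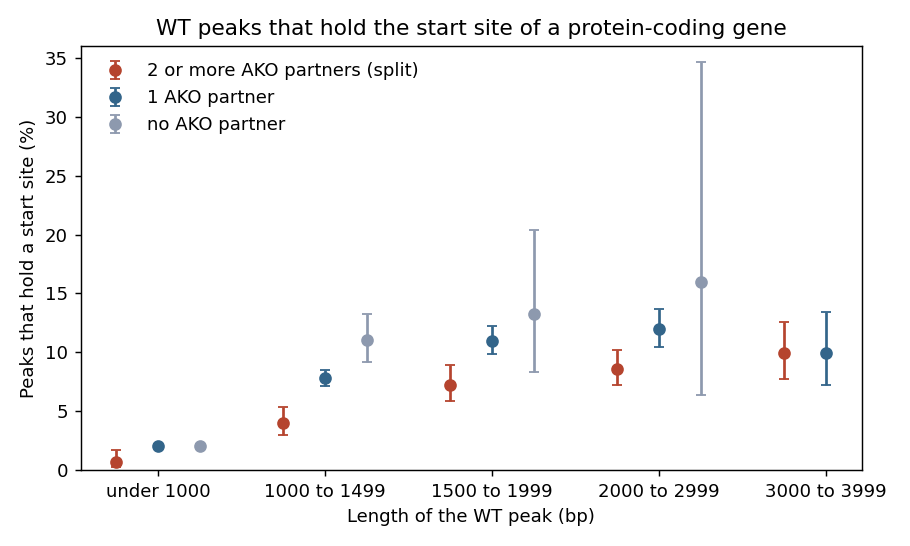
Percentage of WT peaks that hold an annotated start site (y axis) by peak length in bp (x axis), for split peaks (red), peaks with 1 AKO partner (blue) and peaks with no AKO partner (grey), with 95% Wilson intervals. Split peaks lie below peaks with 1 partner below 3000 bp and level with them at 3000 to 4000 bp, at 9.92%.

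The promoters in split peaks had a median G and C content of 60.3% over 339 promoters, between the 62% of promoters in peaks with 1 partner and the 59.8% in peaks with none, and 57% over all 20085 promoters of the table. The 59 promoters in gaps had 61%. Motifs were searched on both strands of the 300-base promoters. The GC box GGGCGG occurred in 54.9% of promoters in split peaks, 60.5% of those in peaks with 1 partner and 47.0% of all; TATAAA occurred in 9.44%, 7.64% and 12.7%, and the E-box CACGTG in 3.83%, 7.88% and 7.89%. The CEBP motif TTGCNNCAA occurred in 8 of the 339 (2.36%), against 1.18% in peaks with 1 partner, 1.69% in peaks with none and 1.76% of all, and the CRE TGACGTCA, which shares its central ACGT with the E-box, in 4 (1.18%), against 1.48% in peaks with 1 partner, 1.13% in peaks with none and 2.30% of all. A palindromic EBF motif was found in 10 of 339 (2.95%), against 1.48% in peaks with 1 partner, 2.12% in peaks with none and 0.981% of all, 10 of them among the 219 promoters in pieces and 0 among the 59 in gaps. The PPAR DR1 and NFI motifs were in 0 of the 339, and in 9 and 7 of all 20085. A match describes letters in the window and not a bound site.

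Of the split peaks, 1672 (34.7%) lay within 10 kb of another. Of the split AKO peaks, 1185 of 2338 (50.7%) had a split WT peak within 10 kb, and 737 (31.5%) were themselves a piece of one. The same shares were not counted over all peaks, so these do not show that split peaks lie closer together than peaks in general. In the 3 tallest split AKO peaks, the taller WT piece exceeded the AKO summit. Pik3r2, a regulatory subunit of PI3-kinase, had 50 fragments at the AKO summit, against 17 and 54 in the WT pieces. Gna11, a G protein alpha subunit, had 50 in AKO, against 28 and 65 in WT. Rara had 49 in AKO, against 33 and 74 in WT, at chr11:98948446-98952034, so that this gene held breaks in both directions.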

How the data were processed

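H3K4me1 ChIP-seq peak lists of 1 AKO and 1 WT adipocyte library were analysed; the input entered only through the authors' background. Per the submitters' processing notes, peaks were called with MACS2 2.2.1 from Bowtie2 2.2.5 alignments to mm10, after bcl2fastq and FastQC 0.11.3, whereas MACS 2.1.1.20160309 stands in the file headers. Per the file headers, narrow peaks were called for each library against the input at a q-value cutoff of 0.05, with each ChIP library scaled down to the input. For each peak the authors deposited a summit pileup signal, its fold over background, −log10 p and −log10 q. Pileup divided by the header's scale factor gave whole fragments.

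Overlaps (at least 1 bp), gaps and shares with 95% Wilson intervals were computed with pandas 2.3.3, numpy 2.4.6 and scipy 1.17.1 under Python 3.11.15, and tested on simulated data. Gene windows were RefSeq GRCm38.p6 gene bodies with 10 kb on each side; 290 of 299 listed symbols matched on chromosomes 1 to 19, and 16457 genes had start sites. Named peaks were those with the most pieces, the longest gaps and the tallest summits, the 10 genes with the most split peaks, up to 20 thermogenic and adipocyte genes by WT pileup, and the 3 tallest of the converse; further list genes and the promoters and miRNAs printed were chosen after their values were seen. A set of 8 motifs, not part of the original plan, was searched and each is reported. The members and lists were chosen with earlier results of these data known. With 1 library per genotype no test was made.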

Additional observations from a re-analysis of the deposited data

How the results depend on the processing

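Peak positions depend on the caller's threshold, and with 1 library per genotype counting intervals understate the error; no library could be left out. No paired analysis was possible because each genotype has 1 library. At −log10 q of at least 5, 1078 WT peaks (3.09%) and 667 AKO peaks (3.24%) were split, and the difference of 3.02 percentage points turned to −0.153; the cause was not tested. In the other alternatives it stayed above 0. At a fold of at least 4 there were 3052 (5.65%) and 1422 (3.09%), a difference of 2.56. Lists of equal number gave 7.69% and 3.12%, a difference of 4.57. A length limit of 2000 bp gave 2802 (4.19%) and 3.14%, a difference of 1.05, and no limit gave 7.62% and a difference of 3.74. Counting only pieces wholly inside gave 1765 (2.49%) and 169 (0.273%), a difference of 2.22, and an overlap of 100 bp gave 6.22% and 3.02%. Joining peaks of the other list within 200 bp gave 5.08% and 1549 (2.50%), a difference of 2.58; within 500 bp it left 686 (0.968%) and 141 (0.228%), a difference of 0.740. Joining within 200 bp in both lists gave 5.87% and 3.07%. For the start-site difference at 1000 to 2000 bp, −3.09, all alternatives were added after seeing the data. At −log10 q of at least 5 the difference was −5.49, from 11 of 290 split peaks and 538 of 5797 with 1 partner. In the others it lay between −3.77 and −2.90. The last had peaks of the other list within 500 bp joined, and its interval (−5.14 to 0.698) includes 0.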
